A study of Mus musculus with 4 samples.

Results

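Genes of the splicing machinery whose symbols begin with Srsf and a digit (SR proteins), Hnrnp, Snrp, Sf3a or Sf3b were compared between Id2-deficient and wild-type dendritic cells. A probe set entered where its annotation gave exactly 1 symbol of that form, and where a gene had several such probe sets the brightest was used. This gave 46 genes, measured by 64 probe sets, of 19938 genes with a single-symbol probe set. They comprised 10 SR protein genes, 17 hnRNP genes, 10 snRNP protein genes and 9 SF3 genes. The rule used names and signal, not the difference between the groups, but it was set with earlier results of these data known.

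The arrays held RNA of cDC2, the conventional dendritic cells that carry Sirpa and mostly Itgam, sorted from spleen. The tested arrays were 2 labelled Id2 KO, from Id2 KO Zbtb46-GFP chimeric mice, and they were set against 2 labelled WT, from Zbtb46-GFP chimeric mice, so both are named with the reporter, in which a green fluorescent protein marks cells that express the dendritic cell factor Zbtb46. The labels give neither age, nor the part of Id2 that was deleted, nor which cells of the host the chimeras kept, and the series' design text names bone marrow where the sample labels name spleen. They do not say that replicates came from separate mice, so the p-values measure only how far these samples lay apart, and that spread may be technical.

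Splicing removes introns from pre-mRNA in steps carried out by small nuclear ribonucleoproteins (snRNPs). Each is built from an RNA, a ring of Sm or Lsm proteins and particle-specific proteins. The SF3A and SF3B complexes belong to the U2 snRNP and hold it at the branch site. SR proteins bind exons and mostly favour their inclusion, hnRNPs coat the transcript and often oppose it, and many genes of both families limit their own mRNA by splicing in an exon that leads to decay. The arrays sum signal over the probes of a gene, so they do not separate such isoforms. In bulk samples, fewer cells of a type and less RNA per cell cannot be told apart.

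Id2, the inhibitor of E proteins that was targeted, read log2 8.71 and 8.97 on the arrays labelled Id2 KO, against 9.14 and 9.08 on the WT arrays. The groups did not overlap, but the difference of -0.27 (95% interval -0.50 to -0.04) missed the threshold (adjusted p = 0.172, from the limma fit described below). In 16 of the 17 alternatives described below it also missed the threshold. Across them the difference ran from -0.40, without Id2 KO replicate 2, to -0.14. A probe set outside the deleted part would check nothing, so directions rest on the labels. Xist was lower on the arrays labelled Id2 KO (6.67 and 6.68, against 11.96 on both WT arrays) and the Y-linked Kdm5d higher (8.08 and 8.50, against 5.72 and 5.53). The groups thus also differed in the sex of the cells, as read from these genes. Genotype and sex cannot be told apart for any gene, whether sex-linked or not. Several marker lists, though not all, also differed between the groups. The limma test described below called 5.53% of all tested genes higher and 2.52% lower. Proliferation genes rose in 23 of 24 tested and fell in 0, with summed intensities of 28237 and 22090 on the arrays labelled Id2 KO and 12189 and 12519 on the WT arrays. Neutrophil genes fell in 11 of 11 (sums of 1516 and 2429 against 17895 and 18537), B cell genes rose in 8 of 8 (2551 and 2909 against 1253 and 1242), and plasmacytoid dendritic cell genes rose in 3 of 6. Genes of monocytes and macrophages fell in 5 of 7, of T and NK cells in 1 of 5, of cDC1 in 1 of 4 and of erythroid cells in 1 of 2. The summed intensities of these and the plasmacytoid list, Id2 KO against WT, were 3843 and 4098 against 4953 and 5162 (monocytes and macrophages), 1478 and 1460 against 1535 and 1543 (T and NK cells), 2482 and 2652 against 2632 and 2672 (cDC1), 329 and 353 against 518 and 511 (erythroid cells) and 2746 and 2543 against 2252 and 2208 (plasmacytoid). Of 10 tested genes of cDC2 and conventional dendritic cells 1 rose (Esam) and 3 fell (Itgam, Zbtb46 and Cd4), with sums of 20968 and 21775 against 23446 and 23770. The defining Sirpa read 12.14 and 12.20 against 12.41 and 12.39 in WT, lower without overlap, and Itgax 12.81 and 12.86 against 12.84 and 12.85. Itgam read 10.06 and 9.49 against 10.77 and 10.78 in WT. Zbtb46, the gene of the reporter, read 6.49 and 6.59 against 7.57 and 7.55, on the Id2 KO arrays below the filter level used below (log2 6.77). Sirpa and Itgax signal was thus present in both groups, but how alike the sorted cells were was not tested. No probe set read 0 on any array, no background was measured beside the probe sets, and the part of these other cells and of proliferation in the results below was not tested.

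Few of the splicing genes passed the test, and the measured differences were small. Of the 45 members bright enough to be tested, 2 rose (4.44%), Hnrnpul2 and Sf3a3, and 0 fell. Over all 11963 tested genes the test called 8.04% in either direction, 5.53% higher and 2.52% lower, so the members' share was near the background. The test was limma's moderated linear model on log2 intensity with Benjamini-Hochberg adjustment over all tested genes and a threshold of 0.05, applied to genes whose mean lay above the 40th percentile (log2 6.77). At an unadjusted p under 0.05, 10 of the 45 were higher and 0 lower, against 13.1% higher and 7.61% lower over all tested genes. The 95% intervals of 43 of the 45 lay within a 1.5-fold change in either direction. In simulated data of this design, 12.3% of changes of 1.25-fold and 84.6% of changes of 1.5-fold were called. The simulations changed 200 genes, fewer than the 962 called here, and the adjusted p depends on that number, so these rates are only a rough guide. The largest fold among the members was 1.32, and smaller changes than 1.25-fold were not simulated.

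**Figure D1:**
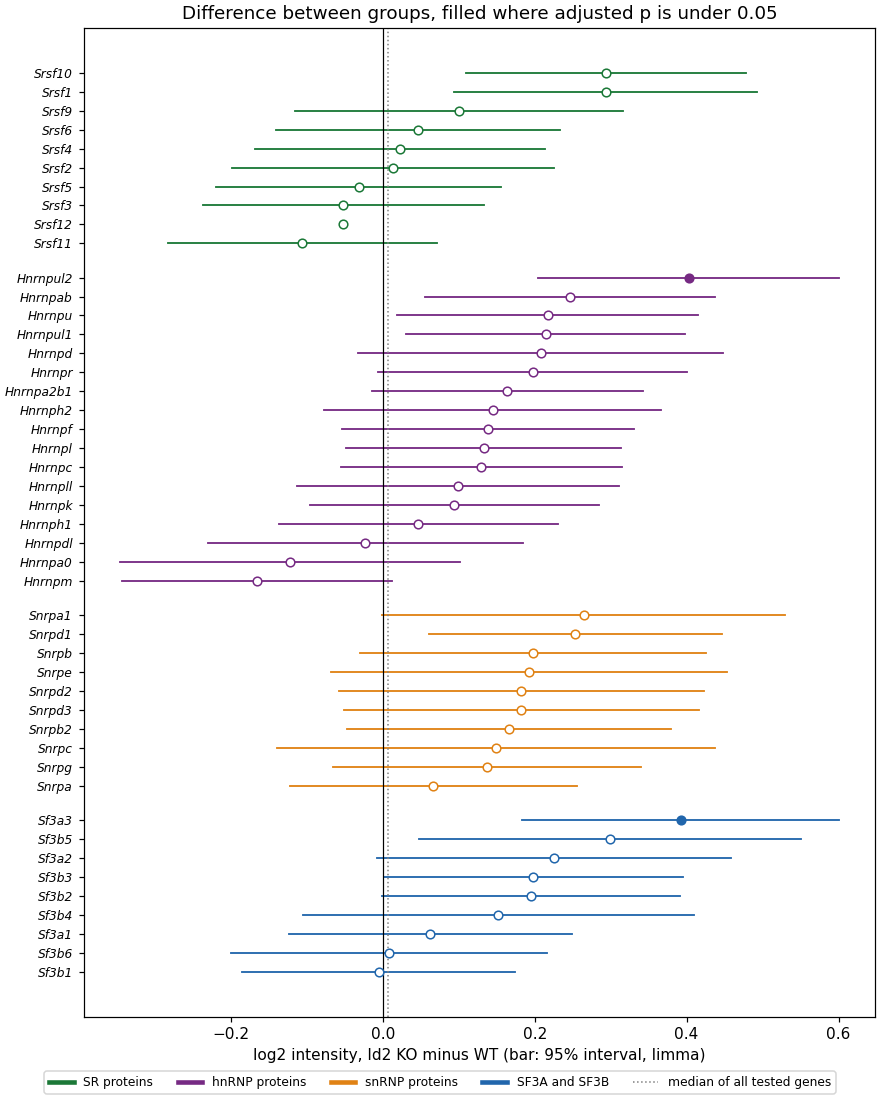
Difference in log2 intensity, Id2 KO minus WT, of each of the 46 genes (dot) with its 95% limma interval (bar), in 4 classes; filled dots passed the test and Srsf12, below the intensity filter, has no interval. The filled dots are Hnrnpul2 at 0.40 and Sf3a3 at 0.39, and the snRNP genes all lie right of 0 while the SR genes lie on both sides.

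Most members nevertheless read slightly higher on the arrays labelled Id2 KO. The difference was above 0 in 38 of 46, with a median of 0.15 on the log2 scale, against a median of 0.01 and 52.1% above 0 over all tested genes. The groups did not overlap, with Id2 KO higher, in 26 of the 45 tested members (57.8%), against 27.9% of all tested genes, and with Id2 KO lower in 2, against 22.8%. The members' probe sets were bright, 39 of the 46 above the 80th percentile of signal, and among all genes above that percentile the median difference was 0.04, with 61.8% above 0, 35.0% higher without overlap and 21.1% lower without overlap. Of the other splicing genes described below, 73.5% lay above 0. The number of members above 0 depended on the scaling, at 34 with quantile normalization applied again, 39 with arrays centred on their medians and 33 with arrays centred on the median of the tested genes, where the members' median was 0.09.

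The 2 arrays labelled Id2 KO were not alike. Replicate 1 read above replicate 2 in 42 of 46 members (91.3%), by a median of 0.13, whereas the same held for 55.4% of all tested genes, 63.9% of genes above the 80th percentile of signal and 74.8% of the other splicing genes described below. Set against the WT mean, the members' median was 0.21 on replicate 1 and 0.06 on replicate 2. All 24 proliferation genes were also higher on replicate 1, by a median of 0.39. With arrays centred on the median of the tested genes, 37 of the 46 were higher on replicate 1.

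**Figure D2:**
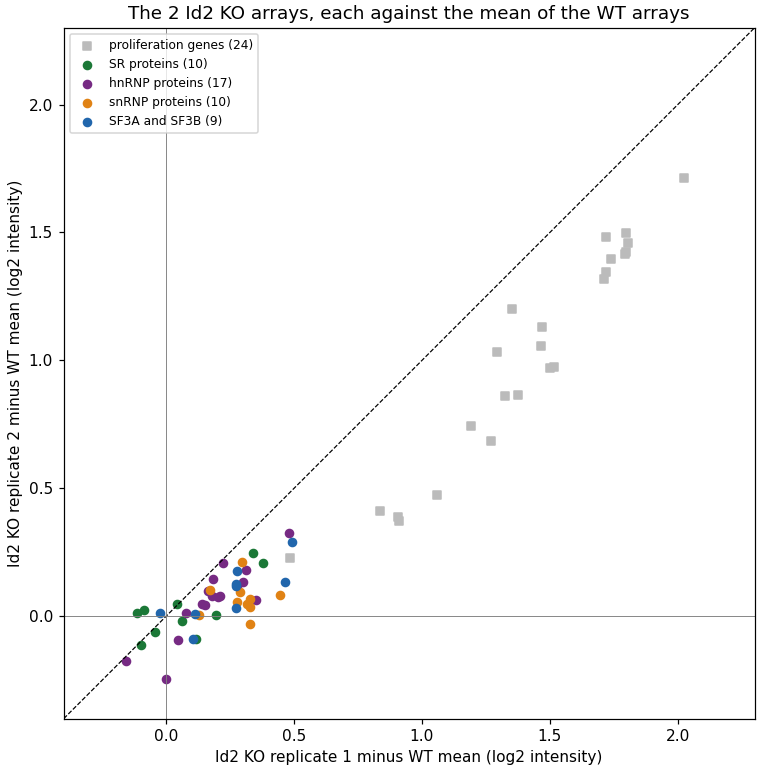
Each gene's log2 intensity on Id2 KO replicate 1 (horizontal) and on Id2 KO replicate 2 (vertical), both minus the mean of the WT arrays, for the 46 splicing genes by class and 24 proliferation genes (grey squares); the dashed line marks equal values. Most splicing genes lie within 0.5 of the WT mean on both axes and below the line. All 24 proliferation genes also lie below the line, most of them farther from the WT mean than the splicing genes.

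The members past the test each rest on small, non-overlapping differences. Hnrnpul2 (probe set 10461220), which encodes an hnRNP of the SAF-A family that in human cells also acts at broken DNA ends, read 10.87 and 10.71 on the arrays labelled Id2 KO and 10.36 and 10.41 on the WT arrays. Its difference was 0.40 (95% interval 0.20 to 0.60, 1.32-fold, adjusted p = 0.0235). Sf3a3 (probe set 10507914), a subunit of SF3A, read 9.16 and 8.95 on the arrays labelled Id2 KO and 8.65 and 8.67 on the WT arrays. Its difference was 0.39 (0.18 to 0.60, 1.31-fold, adjusted p = 0.0324). On both genes the Id2 KO arrays lay farther apart than the WT arrays. Neither call held without WT replicate 1, without WT replicate 2 or without Id2 KO replicate 1, where 0 members were called, and that of Sf3a3 did not hold without the filter on level either (adjusted p = 0.0602). Without Id2 KO replicate 2, 5 were called, the others being Srsf1, Snrpa1 and Sf3b5. Over these and the further alternatives the adjusted p ran from 0.00984 to 0.177 for Hnrnpul2 and from 0.0119 to 0.196 for Sf3a3.

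Since Id2 acts by holding E proteins off DNA, the letters of their binding motif, the E-box CANNTG, were looked for in the members' promoters, taken from RefSeq (GRCm38.p6) as the 250 bases before each start. Of the 46 members, 40 had 54 such windows. Those without one were Hnrnpul2, which had the largest difference of all members, Hnrnpll, Snrpb, Snrpd1, Sf3b4 and Sf3b5. The windows shown are of the member with the largest difference in each class that had one, followed by Hnrnpm, the lowest of all. Capitals mark CANNTG and the ETS factor motif CCGGAAG on either strand.
Sf3a3: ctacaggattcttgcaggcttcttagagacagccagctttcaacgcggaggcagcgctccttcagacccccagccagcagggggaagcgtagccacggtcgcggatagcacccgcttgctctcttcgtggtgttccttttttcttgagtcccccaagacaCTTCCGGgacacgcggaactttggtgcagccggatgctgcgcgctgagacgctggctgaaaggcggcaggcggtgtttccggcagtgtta
Srsf10: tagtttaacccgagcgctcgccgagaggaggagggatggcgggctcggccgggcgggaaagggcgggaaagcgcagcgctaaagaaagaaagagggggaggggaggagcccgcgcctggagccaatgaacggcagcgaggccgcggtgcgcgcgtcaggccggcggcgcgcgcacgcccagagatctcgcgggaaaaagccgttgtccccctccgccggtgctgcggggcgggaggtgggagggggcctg
Hnrnpab: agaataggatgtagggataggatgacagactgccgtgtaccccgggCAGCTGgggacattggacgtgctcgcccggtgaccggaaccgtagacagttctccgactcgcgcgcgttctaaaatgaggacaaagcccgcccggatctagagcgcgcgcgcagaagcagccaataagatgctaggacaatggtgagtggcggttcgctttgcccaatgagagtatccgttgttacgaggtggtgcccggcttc
Snrpa1: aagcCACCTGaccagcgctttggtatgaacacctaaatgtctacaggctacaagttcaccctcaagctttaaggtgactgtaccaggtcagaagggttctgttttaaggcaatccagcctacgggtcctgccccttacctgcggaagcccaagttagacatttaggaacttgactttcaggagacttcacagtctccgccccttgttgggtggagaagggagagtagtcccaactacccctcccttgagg
Hnrnpm: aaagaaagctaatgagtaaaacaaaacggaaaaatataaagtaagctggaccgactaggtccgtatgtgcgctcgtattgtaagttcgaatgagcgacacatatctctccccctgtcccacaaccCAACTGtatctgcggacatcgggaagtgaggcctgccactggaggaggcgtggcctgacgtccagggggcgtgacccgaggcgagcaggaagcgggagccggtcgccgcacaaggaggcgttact
The windows lie at chr4:124714611-124714860, plus strand, for Sf3a3, chr4:135855821-135856070, plus strand, for Srsf10, chr11:51606882-51607131, minus strand, for Hnrnpab, chr7:66060086-66060335, plus strand, for Snrpa1, and chr17:33685459-33685708, minus strand, for Hnrnpm. No CANNTG stood in the windows of Sf3a3 and Srsf10, and 1 each in those of Snrpa1, Hnrnpab and Hnrnpm. CANNTG was present in 55.6% of the members' windows and in 66.2% of all 32851 windows. Of its forms, CAGCTG was present in 9.26% against 13.0%, and CACCTG in 16.7% against 17.2%. The median difference was 0.14 in the 23 members with a CANNTG and 0.14 in the 17 without. The letters stood in most windows and do not show binding, so this split does not separate bound from unbound genes. Binding of E proteins to these genes was not tested. The letters CCGGAAG stood in 33.3% of the members' windows, against 6.91% of all windows, and they overlapped a CANNTG in 0 of them. These shares are counts of letters in windows that were not matched for base composition.

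SR protein genes lay on both sides of 0. None of 9 tested members passed (2 higher at an unadjusted p under 0.05 and 0 lower, against 13.1% and 7.61% of all tested genes), and the class median was 0.02, which turned to -0.02 with quantile normalization applied again and to -0.04 with arrays centred on the median of the tested genes. Srsf5, an SR protein whose mRNA responds to growth signals, read 11.87 and 11.98 on the arrays labelled Id2 KO and 11.95 and 11.97 on the WT arrays, a difference of -0.03 (95% interval -0.22 to 0.16). Srsf3, the smallest SR protein and an adaptor for mRNA export, read 11.92 and 11.90, against 12.01 and 11.91 in WT (-0.05, -0.24 to 0.13), and its other 2 probe sets differed by -0.060 and -0.055. The groups overlapped in both genes. Srsf2, which also helps RNA polymerase II leave promoters, read 10.93 and 10.72, against 10.84 and 10.78 in WT (0.01, -0.20 to 0.23). Srsf12, a tissue-restricted SR protein below the filter, read 6.47 and 6.60, against 6.67 and 6.50 in WT. The largest differences of the class were those of Srsf10 and Srsf1. Srsf10, which turns into a splicing repressor when it loses its phosphates, read 10.84 and 10.74 on the arrays labelled Id2 KO and 10.50 and 10.49 on the WT arrays (0.29, 0.11 to 0.48, adjusted p = 0.0643), although its dimmer probe set differed by 0.02. Srsf1, a regulator of exon choice and mRNA export, read 9.57 and 9.40, against 9.18 and 9.20 in WT (0.29, 0.09 to 0.49, adjusted p = 0.0852). The groups did not overlap in either gene. Srsf9 (0.10), Srsf6 (0.05) and Srsf4 (0.02) lay near 0, and Srsf11 read lower without overlap, at 10.32 and 10.31 against 10.41 and 10.43 in WT (-0.11, -0.28 to 0.07, adjusted p = 0.514).

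**Figure D3:**
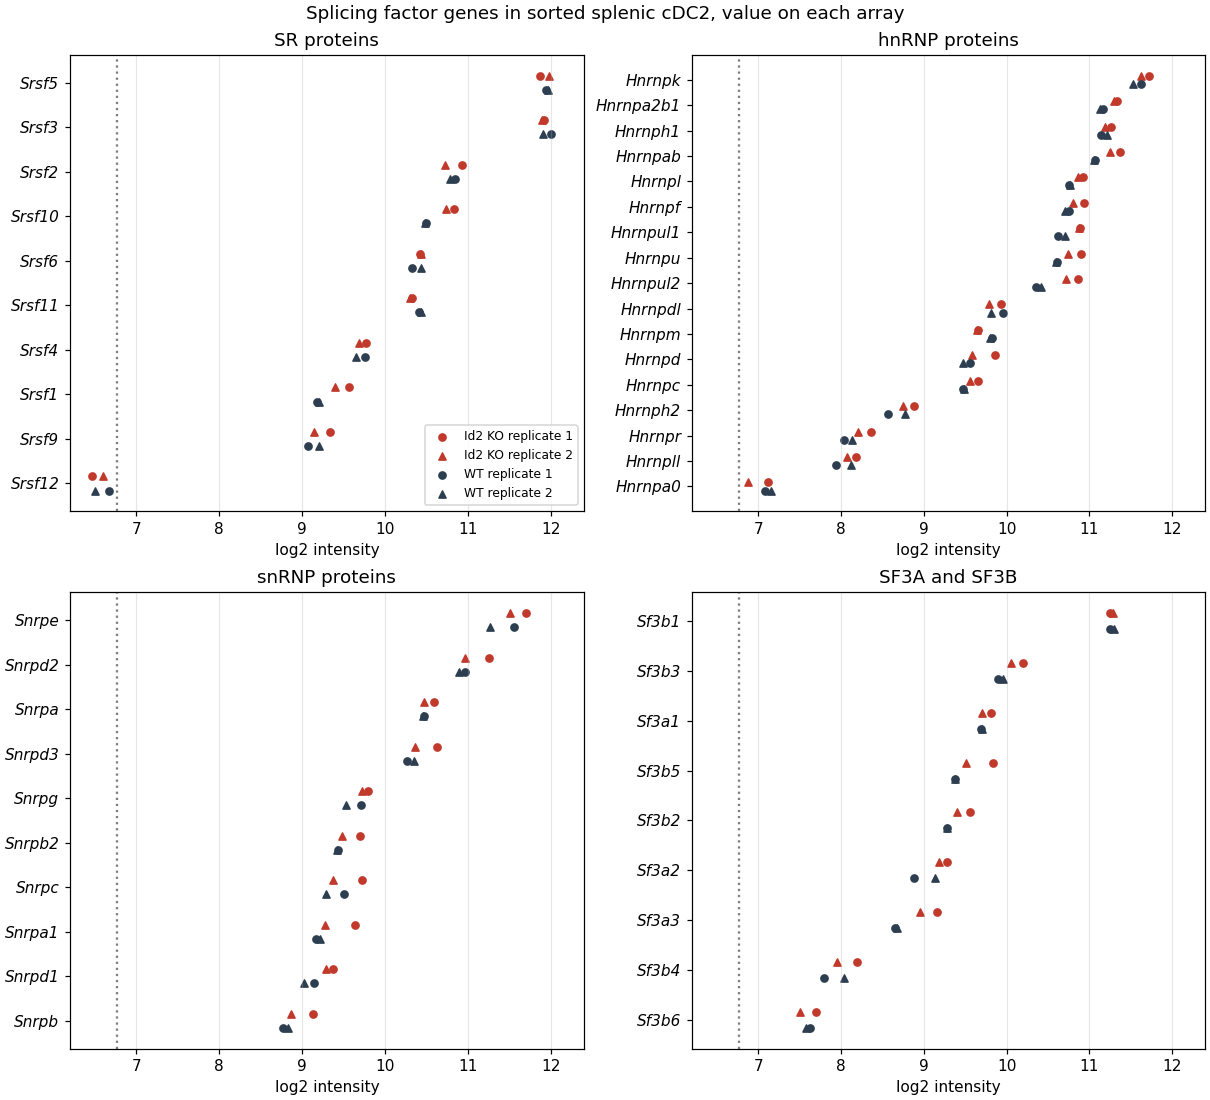
Log2 intensity of each of the 46 genes on the 2 Id2 KO arrays (red, upper of each pair) and the 2 WT arrays (dark, lower), by class, with circles for replicate 1 and triangles for replicate 2; the dotted line is the filter at log2 6.77. The pairs of a gene lie close together throughout, and Id2 KO replicate 1 is most often the rightmost point.

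Among hnRNP genes, 1 of 17 passed, Hnrnpul2, where 5.53% of all tested genes were called higher. At an unadjusted limma p under 0.05, 4 were higher and 0 lower, against 13.1% and 7.61% of all tested genes. Of the 17, 14 lay above 0 (13 with quantile normalization applied again and with arrays centred on the median of the tested genes). The class median was 0.14. The relatives of Hnrnpul2 were higher without overlap and without passing. Hnrnpu, which binds nuclear RNA and chromatin, read 10.90 and 10.74 on the arrays labelled Id2 KO and 10.61 and 10.60 on the WT arrays (0.22, 95% interval 0.02 to 0.42, adjusted p = 0.199), and Hnrnpul1 differed by 0.21 (adjusted p = 0.170). Hnrnpab, which binds single-stranded nucleic acid and takes part in mRNA transport, read 11.37 and 11.24, against 11.07 and 11.06 in WT (0.25, 0.06 to 0.44, adjusted p = 0.127). Hnrnpk, a protein that binds runs of C, read 11.71 and 11.62, against 11.62 and 11.53 in WT (0.09, -0.10 to 0.28). Hnrnpa2b1, known for carrying RNAs to cell processes and into exosomes, read 11.33 and 11.29, against 11.16 and 11.13 in WT (0.16, -0.01 to 0.34). The arrays separated by group in Hnrnpa2b1, while in Hnrnpk the lower Id2 KO value almost met the higher WT value. Hnrnph1, which binds runs of G, read 11.26 and 11.19, against 11.145 and 11.21 in WT (0.05, -0.14 to 0.23), and its close relative Hnrnpf differed by 0.14, with its 3 other probe sets between 0.14 and 0.15. The X-linked Hnrnph2 differed by 0.14 with overlap. Hnrnpl and Hnrnpll, which in T cells govern the splicing of the CD45 gene Ptprc, differed by 0.13 and 0.10, and the AU-rich element binding protein gene Hnrnpd by 0.21 (adjusted p = 0.315). The differences of the other members were 0.20 for Hnrnpr, 0.13 for Hnrnpc and -0.02 for Hnrnpdl. Hnrnpa0, also a binder of AU-rich elements, read 7.12 and 6.87, against 7.08 and 7.16 in WT (-0.12, -0.35 to 0.10). Hnrnpm, a splicing regulator, had the lowest difference of all members, reading 9.66 and 9.64, against 9.82 and 9.80 in WT (-0.17, -0.34 to 0.01, adjusted p = 0.277), without overlap.

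All 10 snRNP protein genes read higher on average on the arrays labelled Id2 KO, under each of the 4 scalings. Among all genes above the 80th percentile of signal, 61.8% did so with the values as deposited. Without Id2 KO replicate 1, Snrpc differed by -0.03, and it was the only gene of the class to fall below 0 in any alternative. None passed (1 higher at an unadjusted p under 0.05 and 0 lower, against 13.1% and 7.61% of all tested genes). Their median difference was 0.18, in a range of 0.07 to 0.26. The 6 genes of the Sm ring lay within 0.14 and 0.25. Snrpe read 11.70 and 11.51 on the arrays labelled Id2 KO and 11.56 and 11.26 on the WT arrays (0.19, 95% interval -0.07 to 0.45), with overlap. Snrpd2, measured by 5 probe sets that differed by 0.13 to 0.20, read 11.26 and 10.97, against 10.97 and 10.90 in WT (0.18, -0.06 to 0.42). Snrpb read 9.13 and 8.87, against 8.77 and 8.83 in WT (0.20, -0.03 to 0.43). In Snrpd2 and Snrpb the replicate 2 array labelled Id2 KO lay close to the WT arrays and replicate 1 above them. Snrpd1 came nearest to the threshold, at 9.38 and 9.29 against 9.14 and 9.02 in WT (0.25, 0.06 to 0.45, adjusted p = 0.122), and Snrpd3 (0.18) and Snrpg (0.14) did not overlap between groups. Of the U2 proteins, Snrpa1 read 9.64 and 9.28, against 9.17 and 9.22 in WT (0.26, -0.0007 to 0.53, adjusted p = 0.243), and Snrpb2 differed by 0.17. Of the U1 proteins, which recognise the start of the intron, Snrpa read 10.59 and 10.47, against 10.47 and 10.46 in WT (0.07, -0.12 to 0.26), and Snrpc differed by 0.15. Relative to the WT mean, the class median was 0.31 on Id2 KO replicate 1 and 0.06 on replicate 2.

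Among the SF3 genes, 1 of 9 passed, Sf3a3, where 5.53% of all tested genes were called higher. At an unadjusted limma p under 0.05, 3 were higher and 0 lower, against 13.1% and 7.61% of all tested genes. Of the 9, 8 lay above 0 (7 to 9 under the other scalings), with a median of 0.19. Within SF3A, Sf3a2 read 9.28 and 9.18 on the arrays labelled Id2 KO and 8.88 and 9.14 on the WT arrays (0.23, 95% interval -0.01 to 0.46), and Sf3a1 read 9.81 and 9.71, against 9.69 and 9.71 in WT (0.06, -0.12 to 0.25). The 3 subunits of 1 complex had point differences from 0.06 to 0.39, which were not tested against each other. Within SF3B, Sf3b1, the large scaffold that closes around the branch site, read 11.25 and 11.28, against 11.25 and 11.29 in WT (-0.01, -0.18 to 0.17). Its values on the 4 arrays spanned less than 0.05. Sf3b3 read 10.20 and 10.05, against 9.90 and 9.96 in WT (0.20, 0.0014 to 0.40, adjusted p = 0.239). The small subunit gene Sf3b5 read 9.84 and 9.51, against 9.37 on both WT arrays (0.30, 0.05 to 0.55, adjusted p = 0.162), with the Id2 KO arrays 0.33 apart. Sf3b2 (0.19) and Sf3b4 (0.15) lay between, and Sf3b6, which contacts the branch point, read 7.70 and 7.51, against 7.62 and 7.57 in WT (0.01, -0.20 to 0.22).

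Few genes of the wider splicing pathway passed the test. Of 154 tested genes in 10 lists of other splicing factors, 6 rose (3.90%) and 1 fell (0.649%), against 5.53% and 2.52% of all tested genes, with a median difference of 0.09 and 32 higher and 2 lower at an unadjusted p under 0.05 (background 13.1% and 7.61%). Snrnp25, a protein of the U11/U12 particle that splices minor introns, read 9.25 and 9.06 on the arrays labelled Id2 KO and 8.56 and 8.57 on the WT arrays (0.59, 95% interval 0.39 to 0.80, 1.51-fold, adjusted p = 0.00399). Its call was kept in all 17 alternatives (adjusted p 0.00141 to 0.0401), unlike those of the members. Mbnl3, an X-linked muscleblind splicing regulator, read 9.53 and 9.23, against 8.61 and 8.91 in WT (0.62, 0.33 to 0.91, adjusted p = 0.0178). Khdrbs1 (Sam68), which links signalling to exon choice, rose by 0.38 (adjusted p = 0.0235), and the paraspeckle gene Pspc1 by 0.39 (adjusted p = 0.0486). Gemin6 of the SMN complex, which loads Sm rings, rose by 0.50 (adjusted p = 0.0175). Srpk1, a kinase of SR proteins, rose by 0.35 (adjusted p = 0.0358). Sap18, a protein of the exon junction-associated ASAP complex and of histone deacetylase complexes, fell to 9.37 and 9.23 on the arrays labelled Id2 KO, against 9.73 and 9.74 on the WT arrays (-0.44, -0.63 to -0.24, adjusted p = 0.0146). Without WT replicate 1, without WT replicate 2 and without Id2 KO replicate 1, the calls kept of these 7 were 1, 3 and 2, and without Id2 KO replicate 2 that of Srpk1 was lost. The calls of Srpk1 and Pspc1 were the least stable of them, lost in 8 and 7 of 17 alternatives, among them no filter on level, quantile normalization applied again and centring on the median of the tested genes (adjusted p 0.0211 to 0.282 for Srpk1 and 0.0111 to 0.352 for Pspc1).

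By list, 1 of 17 other snRNP and hnRNP genes rose, 1 of 15 genes of snRNP assembly and import, 1 of 10 genes of SR protein kinases, phosphatase and import, and 3 of 20 other splicing regulators, and in the exon junction complex 1 of 7 fell. None passed among 9 Lsm ring genes, 14 of U2 recruitment and the branch site, 37 of the tri-snRNP, Prp19 complex and splicing helicases, 18 of SR-related proteins and 7 of nonsense-mediated decay. In those 5 lists, 3, 1, 9, 2 and 0 genes were higher at an unadjusted p under 0.05, in the order given, and 0 were lower, where the background was 13.1% and 7.61%. The list medians ran from 0.03 for the SR protein kinase list to 0.15 for the other regulators.

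**Figure D4:**
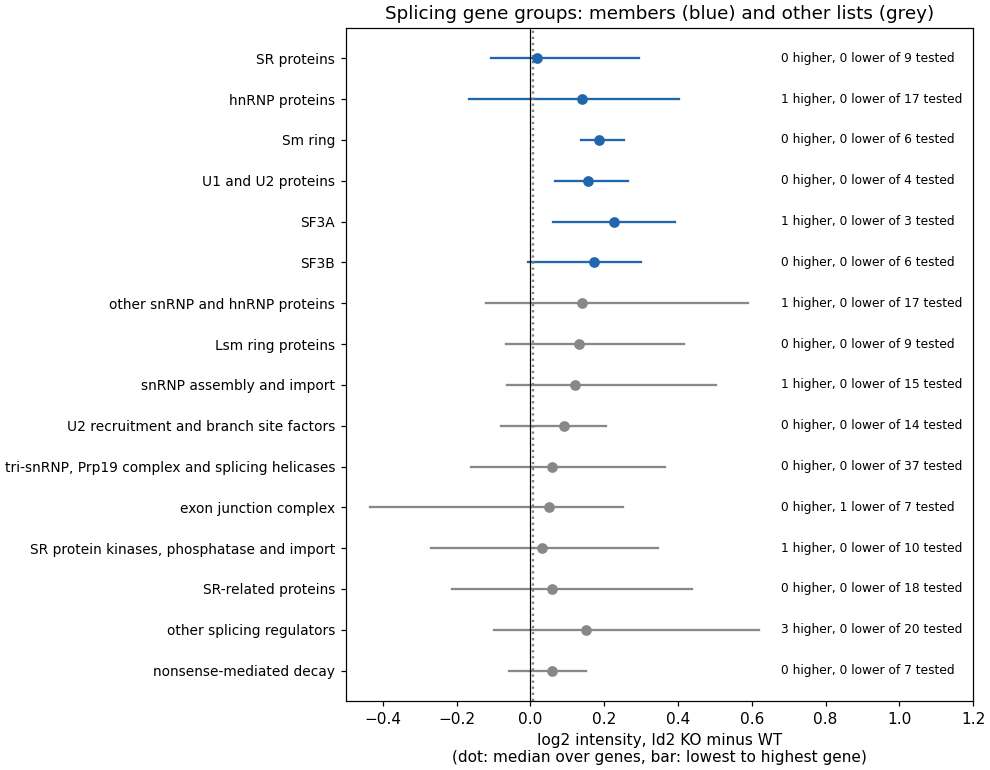
Median difference in log2 intensity, Id2 KO minus WT (dot), and range from the lowest to the highest gene (bar) for 6 groups of the named splicing genes (blue) and 10 lists of other splicing genes (grey), with the number that passed the test beside each; the dotted line is the median of all tested genes. All medians lie between 0.02 and 0.23, and 3 is the highest number of genes passed in any group.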

How the data were processed

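Splenic cDC2 were profiled on Affymetrix arrays, 1 array per sample, 2 per group, after amplification of small RNA amounts per the labels' protocols. The deposited values are 1 linear intensity per probe set and array, from 5.19 to 18624, with array medians of 128 to 134. Affymetrix Expression Console and RMA are named in the submitters' processing notes, without version or order, and RMA removes background, equalises the arrays and summarises probes. A genome build is not given in the sources used here. Such scaling largely removes changes in total RNA per cell. Detection calls were not used here.

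From these values log2 was taken with no offset. Of 28853 probe sets, 21789 had 1 gene symbol in the platform annotation, 1621 had several and 5443 were not listed, and only the first were named. The difference Id2 KO minus WT came from lmFit and eBayes of limma 3.58.1 (R 4.3.3), two-sided and without covariates, over 11963 genes. This left 2 residual degrees of freedom, to which moderation added 6.77. Intervals come from this fit and are not adjusted. In 20 simulations with 200 changed genes each, 4.82% of calls were false. Symbols were looked up in a RefSeq gene table of GRCm38.p6, which matched 21766 probe sets. Members, gene lists and tests were chosen with earlier results of these data known. All members could be named, with array values for those past the threshold and the 3 brightest and the dimmest of each class, and up to 4 genes past it per direction of each other list. Array values of Srsf1, Srsf10, Srsf11, Hnrnpab, Hnrnpm, Hnrnpu, Snrpa1, Snrpd1, Sf3a2 and Sf3b5 were added after they had been seen. Alternatives changed the filter, scaling, probe set rule, offset, moderation, replicate block and arrays used.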

Additional observations from a re-analysis of the deposited data

Results flagged for a closer look

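Probe sets annotated to several genes lie outside the comparison, and 1 group of them stood apart. The brightest of 9 probe sets annotated to Hnrnpa3 and the predicted gene Gm6793 together read 11.38 and 11.28 on the arrays labelled Id2 KO and 10.83 and 10.95 on the WT arrays. Its difference of 0.44 (95% interval 0.25 to 0.64) passed when such probe sets were added to the limma fit, a choice made after seeing the data (adjusted p = 0.0155, over 12443 features). All 9 were higher without overlap, by 0.38 to 0.57, where 27.9% of all tested genes were. However, 2 of the 9 hold identical values, and sets that share both genes are not independent measurements. Which of the annotated genes gives the signal cannot be told apart.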

How the results depend on the processing

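Leaving out 1 array at a time gave 295 to 821 higher and 136 to 338 lower genes over all tested (661 and 301 with all arrays), 0 to 5 higher members (2 with all arrays), and 1 to 11 higher and 0 to 1 lower other splicing genes (6 and 1). The members' median then ran from 0.06 without Id2 KO replicate 1 to 0.21 without Id2 KO replicate 2. A group left with 1 array was assumed to vary like the other. Without a filter on level 1 member was called. Quantile normalization applied again gave 2 lower other splicing genes. Centring on the median of the tested genes, chosen after seeing the data, also gave 2, and over all genes 573 higher and 470 lower (54.9% of calls higher, against 68.7%). Deviations of same-numbered arrays correlated at -0.144, so the numbers do not show pairing. With the replicate block 0 members (adjusted p = 0.0673 for Hnrnpul2 and 0.0760 for Sf3a3) and 2 other splicing genes were higher, and 479 and 205 of all genes changed. With crossed numbers, chosen after seeing the data, the counts were 4, 14, 932 and 448. No call reversed in direction in any of these, and 0 members were lower throughout. Of 43 members not called, 4 gained a call in some alternative. The causes were not tested, and 2 arrays per group limit the precision.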

Other observations

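Other members of the machinery have only probe sets shared with further genes. The 5 probe sets annotated to Hnrnpa1, an abundant splicing repressor, together with the gene copies Hnrnpa1l2-ps2, Gm10052 and Gm5643, were higher without overlap, by 0.14 to 0.18. The same held for 27.9% of all tested genes, and sets that share these genes are not independent measurements. The brightest read 10.67 and 10.52 on the arrays labelled Id2 KO and 10.51 and 10.40 on the WT arrays (0.15, 95% interval -0.06 to 0.35, limma adjusted p = 0.413). The probe set annotated to the Sm ring gene Snrpf and Gm13092 differed by 0.18 (adjusted p = 0.278), within the range of the other Sm genes, and that of Hnrnph3 and Aff3 by -0.04 (adjusted p = 0.842). The probe set of Snurf and Snrpn, an imprinted locus known for its use in neurons, read 5.80 and 5.83, against 5.95 and 5.71 in WT, below the filter.

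Where a member had further single-symbol probe sets, all 18 of these in 10 genes had the sign of the brightest one. Probe sets of the same gene are not independent measurements, and the share over all genes was not computed, so this count adds no separate evidence. Srsf10 was the gene in which the sizes differed most, at 0.29 and 0.02.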
